A study of Homo sapiens with 2 samples.

Results

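The hypoxia response genes described here are 10 genes that are widely used as readouts of low oxygen in tumour cells: CA9, VEGFA, ADM, ANKRD37, NDRG1, EGLN3, BNIP3, ANGPTL4, KDM3A and PDK1. They were taken by gene symbol, whatever their values, from the named genes of an Affymetrix Human Transcriptome Array 2.0 data set. Of the 10 genes, 9 were measured, each by 1 transcript cluster (the array's gene-level unit), among 22407 named genes in all. CA9, the gene of the cell surface enzyme carbonic anhydrase IX, was not paired with a transcript cluster by the annotation used and was not analysed here.

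The study compared a cetuximab-resistant line of FaDu cells with the untreated parental FaDu line. FaDu is a long-used human cell line grown from a squamous carcinoma of the hypopharynx, and cetuximab is an antibody that blocks the epidermal growth factor receptor. There was 1 array for each line, called the resistant and the parental array below by their labels alone. The labels do not say how resistance was obtained, whether the line is 1 clone or a pool, or whether the drug was on the resistant line at harvest, and they give no oxygen level. With 1 array a line there was no spread between replicates, no test was possible, and every difference below describes a pair of arrays. Resistance, culture, passage and array cannot be told apart, nor can fewer cells of a type and less RNA per cell.

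In cells with enough oxygen, prolyl hydroxylases of the EGLN family mark the alpha subunits of hypoxia-inducible factors (HIFs), which the VHL ubiquitin ligase then directs to destruction. When oxygen falls, the alpha subunit lasts, pairs with ARNT and binds short response elements near its target genes. The targets serve blood vessel growth (VEGFA, ADM), lipid handling (ANGPTL4), removal of acid (CA9), a lower use of pyruvate and fewer mitochondria (PDK1, BNIP3), chromatin (KDM3A) and feedback on the sensor itself (EGLN3). HIF alpha subunits are controlled mainly as proteins, which the array does not measure.

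The core of a HIF response element is ACGTG or GCGTG. RefSeq promoter windows (GRCh38.p14, 250 bases before to 50 bases after a gene's start) were searched for 7 of the 9 measured members. VEGFA and NDRG1 were left out of the search. Both letter runs were searched on both strands, and the palindrome CACGTG matches on either strand. At least 1 window of 6 of these 7 members held a match, against 48.4% of all 35116 windows, and 4 of the 7 held ACGTG, against 21.4% of all windows. The units differ: PDK1 and KDM3A have 2 windows each and count once if either matches, while the shares are per window. The median GC content was 58.7% over all windows, while every window of a measured member, except 1 of the pair of windows of PDK1, lay between 64.0% and 80.7%. The core holds a CG step, so GC content bears on how often it is found by letters alone. The windows of 4 members are shown, with matches on either strand in capitals. Among the 7 members searched, PDK1 and EGLN3 have the largest difference in each direction, and BNIP3 and ANKRD37 have the most matches. NDRG1, the measured member of largest difference in size, was not searched, so the counts of matches do not cover it.
PDK1, the second of its windows, chr2:172555840-172556139, plus strand: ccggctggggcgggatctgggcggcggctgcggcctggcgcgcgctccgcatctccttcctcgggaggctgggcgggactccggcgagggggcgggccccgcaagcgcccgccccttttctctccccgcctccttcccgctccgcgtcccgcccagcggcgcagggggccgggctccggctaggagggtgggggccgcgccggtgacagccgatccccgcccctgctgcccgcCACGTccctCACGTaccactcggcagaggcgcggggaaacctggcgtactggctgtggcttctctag
EGLN3, chr14:33951025-33951324, minus strand: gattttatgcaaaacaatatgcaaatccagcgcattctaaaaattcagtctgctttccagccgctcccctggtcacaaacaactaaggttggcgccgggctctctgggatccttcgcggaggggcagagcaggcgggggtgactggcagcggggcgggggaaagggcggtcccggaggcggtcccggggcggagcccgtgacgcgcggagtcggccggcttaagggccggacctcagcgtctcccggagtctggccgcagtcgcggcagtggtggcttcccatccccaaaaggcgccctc
BNIP3, chr10:131981874-131982173, minus strand: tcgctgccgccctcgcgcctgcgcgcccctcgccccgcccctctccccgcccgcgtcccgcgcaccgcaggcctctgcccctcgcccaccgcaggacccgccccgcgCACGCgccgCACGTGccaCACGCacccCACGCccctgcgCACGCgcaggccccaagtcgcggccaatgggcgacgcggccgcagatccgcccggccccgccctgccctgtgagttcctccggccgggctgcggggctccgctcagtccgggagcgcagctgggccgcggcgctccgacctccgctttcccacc
ANKRD37, chr4:185396591-185396890, plus strand: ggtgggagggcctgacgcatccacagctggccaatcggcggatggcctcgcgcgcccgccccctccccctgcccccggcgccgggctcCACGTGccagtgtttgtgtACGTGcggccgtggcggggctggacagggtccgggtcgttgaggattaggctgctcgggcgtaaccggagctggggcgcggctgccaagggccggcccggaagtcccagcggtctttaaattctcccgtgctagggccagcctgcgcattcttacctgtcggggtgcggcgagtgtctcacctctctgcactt
The PDK1 window holds 2 matches to ACGTG close together, and the other PDK1 window, at 36.3% GC, holds 0. The BNIP3 window holds 6 matches in 5 separate runs, and that of ANKRD37 holds 3 matches in 2 runs. The EGLN3 window holds 0 matches, which says only that these letters are not in this window. A match in letters is a description and not a site of binding.

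The deposited values are log2 expression values, and the level below which 95% of 358 olfactory receptor genes lay was taken as background, because epithelial cells rarely transcribe them. It was 5.07 log2 units on the resistant and 5.09 on the parental array. Epithelial markers were bright on both arrays, with medians of 14.35 on the resistant and 15.20 on the parental array over the 6 measured of 8 genes, with EPCAM past 2-fold upward (13.98 resistant, 12.61 parental) and KRT5 downward (13.75 resistant, 17.25 parental). Of the markers of other cell types, 1 of 6 fibroblast genes, 3 of 6 endothelial genes and 2 of 8 leukocyte genes were above background on either array. The list medians were 4.12 and 4.05 for fibroblast, 4.75 and 4.44 for endothelial and 4.16 and 4.48 for leukocyte genes on the resistant and the parental array. The leukocyte gene PTPRC (3.98 resistant, 3.92 parental) and the endothelial gene VWF (4.39 resistant, 4.63 parental) were below background on both. CD68, a macrophage marker that other cells also express, was bright and lower on the resistant array (9.71 resistant, 11.19 parental). The endothelial gene CDH5 was above background on both (6.98 resistant, 6.14 parental). It was dim, below the level under which 99% of the olfactory receptor genes lay (7.10 resistant, 6.61 parental). The part of other cell types in the members' differences was not tested. FaDu cells are known to have lost SMAD4 from both copies of chromosome 18. SMAD4 stood at 10.81 on the resistant array and at 4.60, below background, on the parental array, and its neighbour ME2 stood at 12.28 on the resistant and 4.12 on the parental array. The resistant array therefore goes against its label at this locus, and every difference below rests on it. Whether both cultures are FaDu cannot be told from these arrays beyond these values.

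The hypoxia response genes did not move as a group. PDK1 was 3.71-fold higher on the resistant array, while NDRG1 was 3.81-fold lower and EGLN3 2.79-fold lower. The other 6 measured members, VEGFA, ADM, ANGPTL4, BNIP3, KDM3A and ANKRD37, differed by less than 2-fold. A difference of 1 log2 unit (2-fold) was counted. Of all named genes, 8.34% were higher by 2-fold or more and 7.42% lower by as much. Over the 11196 genes whose brighter value lay above the median of that value (5.99 log2 units), 16.0% were higher by 2-fold or more and 14.1% lower, together 30.1%. Of the 8 members among these brighter genes, 1 was higher and 2 were lower, which is near that share for so few genes. ANGPTL4 was not among them. The median difference of the 9 members, resistant minus parental, was -0.19 log2 units, against -0.01 over all named genes. Of the 9 members, 8 were above the background level on both arrays, and ANGPTL4 was below it on both.

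**Figure D1:**
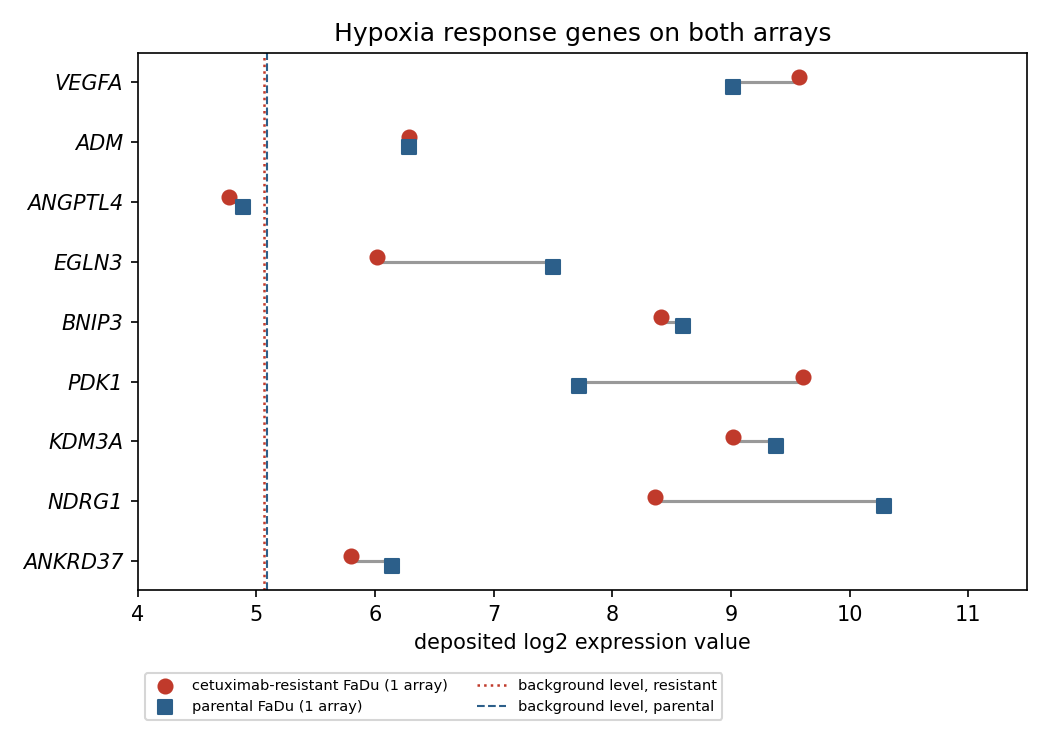
Deposited log2 expression values (horizontal axis) of the 9 measured hypoxia response genes, with circles for the resistant and squares for the parental array and vertical lines for the background level of each array. PDK1 lies to the right on the resistant array, NDRG1 and EGLN3 lie to the right on the parental array, and both points of ANGPTL4 lie left of the background lines.

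Among the members that act on the oxygen signal itself, EGLN3 encodes a prolyl hydroxylase that marks HIF alpha subunits and is itself induced by HIF. EGLN3 stood at 6.02 on the resistant array and 7.50 on the parental array, a log2 difference of -1.48. The resistant value lay above background but below a stricter level, under which 99% of the olfactory receptor genes lay (7.10 on the resistant array). Against that stricter level, EGLN3 was at least 1.32-fold lower, so its size is imprecise. The other enzymes of its family did not share the direction. EGLN1, the main oxygen sensor of most cells, stood at 9.88 on the resistant and 9.07 on the parental array. EGLN2 stood at 8.29 on the resistant and 8.06 on the parental array.

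Among the members that act in mitochondria, PDK1 was past 2-fold and BNIP3 was not. PDK1 encodes a kinase that switches off the pyruvate dehydrogenase complex and so keeps pyruvate out of the citric acid cycle. PDK1 stood at 9.61 on the resistant array and 7.72 on the parental array, a log2 difference of 1.89, and the absolute difference was larger than that of 89.5% of the 11196 brighter genes. BNIP3 encodes a receptor on the outer mitochondrial membrane that brings mitochondria to autophagy. BNIP3 stood at 8.41 on the resistant and 8.60 on the parental array, a difference of -0.19 that was larger than that of 17.9% of the brighter genes. BNIP3 has a processed pseudogene of similar sequence, so its cluster may share signal.

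Among the members whose products are secreted, none reached 2-fold. VEGFA, the gene of the growth factor that drives blood vessel formation, stood at 9.57 on the resistant and 9.02 on the parental array, a 1.46-fold higher value. ADM, the gene of the vasodilator peptide adrenomedullin, stood at 6.29 on both arrays. ANGPTL4, the gene of an inhibitor of lipoprotein lipase, stood at 4.77 on the resistant and 4.89 on the parental array, both below background, so no fold is given. The ADM values lay below the stricter level on both arrays (7.10 resistant, 6.61 parental), so this gene was dim.

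Of the remaining members, NDRG1 was lower on the resistant array past 2-fold, while KDM3A and ANKRD37 had small negative differences. NDRG1, a gene of the N-myc downstream regulated family that is induced by low oxygen and by lack of iron, stood at 8.36 on the resistant and 10.29 on the parental array. Its log2 difference of -1.93 was the largest in size of the 9 and exceeded that of 89.9% of the brighter genes. KDM3A, the gene of a demethylase of histone H3 lysine 9, stood at 9.02 on the resistant and 9.38 on the parental array, a difference of -0.36. ANKRD37, the gene of a small ankyrin repeat protein, stood at 5.80 on the resistant and 6.14 on the parental array, a difference of -0.34. Both ANKRD37 values were dim and lay below the stricter level, so the sign of this difference is not secure. The differences of the 6 members under 2-fold were all smaller in size than the median absolute difference of the brighter genes, 0.60 log2 units.

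**Figure D2:**
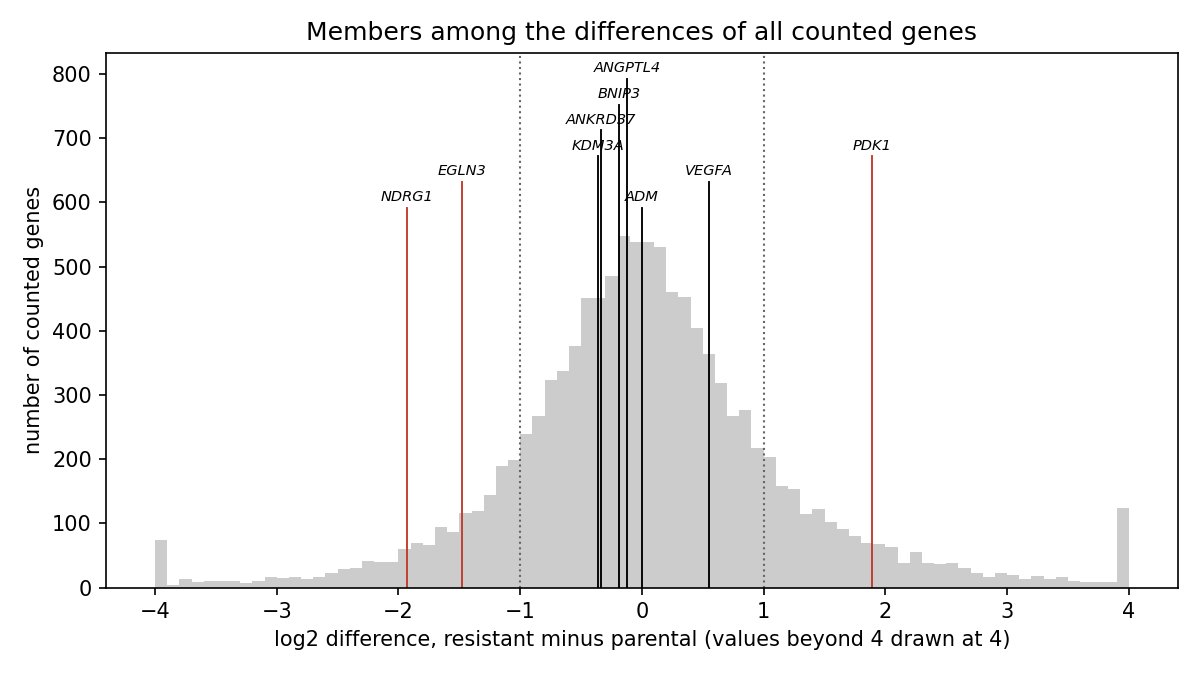
Histogram of the log2 difference, resistant minus parental (horizontal axis), over the 11196 brighter genes (vertical axis, number of genes), with a line for each of the 9 members and dotted lines at 2-fold. PDK1, NDRG1 and EGLN3 lie outside the dotted lines and the other members between them; ANGPTL4 is drawn but is not among the brighter genes.

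The genes of HIF and its control also went both ways. For this and every list below, 16.0% of the brighter genes were at least 2-fold higher and 14.1% lower. Over all named genes the shares were 8.34% and 7.42%, and the lists were not filtered by brightness. Of 5 HIF subunit genes, 1 was at least 2-fold higher and 0 lower, with a median of 0.23. EPAS1, the alpha subunit also called HIF2A, was 6.54-fold higher, at 10.31 on the resistant and 7.60 on the parental array. HIF1A stood at 14.52 on the resistant and 13.61 on the parental array, and ARNT at 9.46 on the resistant and 9.90 on the parental array, both under 2-fold. HIF3A (4.34 resistant, 4.40 parental) and ARNT2 (4.92 resistant, 4.69 parental) were below background. Both alpha subunit genes above background thus had higher values on the resistant array, and that of EPAS1 was past 2-fold.

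Of 15 measured genes of oxygen sensing and HIF turnover (17 listed), 1 was at least 2-fold higher, 2 were at least 2-fold lower, and the median was 0.17. HIF1AN, the asparaginyl hydroxylase that blocks the coactivator contact of HIF, was 2.07-fold lower, at 9.11 on the resistant and 10.16 on the parental array. VHL, the substrate receptor of the ligase, stood at 9.12 on the resistant and 9.14 on the parental array. LIMD1, a scaffold that links hydroxylases and VHL, was 3.66-fold higher, at 9.51 on the resistant and 7.64 on the parental array. OS9, a lectin of the endoplasmic reticulum also described to bind HIF1A, was 3.78-fold lower, at 11.32 on the resistant and 13.24 on the parental array. SIAH2, a ligase for EGLN proteins, stood at 7.54 on the resistant and 6.64 on the parental array. Of 6 measured coactivator and CITED genes (7 listed), 1 was lower and 0 were higher, with a median of -0.10. It was NCOA2, a nuclear receptor coactivator, at 8.11 on the resistant and 10.92 on the parental array, while CREBBP stood at 12.86 on the resistant and 13.49 on the parental array and CITED2, which competes with HIF for CREBBP, at 9.71 on the resistant and 9.35 on the parental array.

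A further 58 hypoxia-induced genes were listed beside the members. Of 55 measured, 14 were higher by 2-fold or more and 6 lower, beside 16.0% higher and 14.1% lower over the brighter genes. With values raised to the stricter level used for EGLN3, 12 were higher and 4 lower. Without that step the median difference of the 55 was 0.39. Of the 9 measured members 1 was higher and 2 were lower, with a median of -0.19. These counts describe lists chosen with earlier results known and were not tested. Genes of glucose use were split: of 18, 4 were higher and 3 lower, with a median of 0.12. SLC2A3, a glucose transporter, was 27.1-fold higher, at 10.41 on the resistant and 5.65 on the parental array, where it was dim, and at least 13.9-fold higher against the stricter level. PGK1, a glycolytic kinase, was 2.60-fold higher, at 14.31 on the resistant and 12.93 on the parental array. GBE1, the glycogen branching enzyme, was 2.97-fold higher, at 8.40 on the resistant and 6.83 on the parental array. ALDOC, an aldolase, was 3.41-fold lower, at 5.95 on the resistant and 7.72 on the parental array. The resistant value was dim, and against the stricter level ALDOC was at least 1.54-fold lower, no longer past 2-fold. The other genes past 2-fold, added to the text after their values were seen, were the hexokinase gene HK2 (8.79 resistant, 7.50 parental), the phosphofructokinase gene PFKL (8.48 resistant, 9.77 parental) and SLC2A1. SLC2A1, the main glucose transporter of many tumour cells, stood at 13.13 on the resistant and 14.31 on the parental array, opposite in sign to SLC2A3.

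Genes of matrix and secreted proteins had the highest median of these lists, 0.62, with 5 of 13 measured genes (15 listed) at least 2-fold higher and 0 lower, beside the same 16.0% and 14.1% over the brighter genes. With the stricter level 3 of the 13 were higher, without LOX and EDN1. PDGFB, a growth factor subunit, was 4.86-fold higher, at 7.85 on the resistant and 5.57 on the parental array, and at least 2.36-fold higher against the stricter level. TGFA, a ligand of the epidermal growth factor receptor, was 3.32-fold higher, at 8.74 on the resistant and 7.01 on the parental array. LOX, a collagen crosslinking enzyme, was at least 2.86-fold higher, at 6.61 on the resistant array and below background (4.94) on the parental array, and both values lay below the stricter level. IGFBP3, which binds insulin-like growth factors, was 2.30-fold higher, at 11.19 on the resistant and 9.99 on the parental array. The fifth was EDN1, the gene of endothelin, at 6.41 on the resistant and 5.41 on the parental array, just at 2-fold and below the stricter level on both, which was added after its value was seen.

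Genes of stress, autophagy and transcription had a median of 0.39, with 5 of 24 measured genes (25 listed) at least 2-fold higher and 3 lower. A pair of related repressors of circadian and hypoxic transcription went opposite ways. BHLHE41 was at least 30.0-fold higher, at 10 on the resistant array and below background (4.97) on the parental array, and at least 10.5-fold higher against the stricter level. BHLHE40 was 6.50-fold lower, at 8.14 on the resistant and 10.84 on the parental array. TMEM45A, a membrane protein gene, was 6.59-fold higher, at 8.17 on the resistant and 5.45 on the parental array, and at least 2.94-fold higher against the stricter level. INSIG2, a sterol sensor partner, was 4.26-fold higher, at 11.22 on the resistant and 9.13 on the parental array. The others past 2-fold, added after their values were seen, were the creatine transporter gene SLC6A8 (10.44 resistant, 8.90 parental) and the transferrin receptor gene TFRC (14.85 resistant, 13.75 parental) on the higher side. On the lower side they were the adenylate kinase gene AK4 (9.62 resistant, 10.95 parental) and the lipid droplet gene PLIN2, at 5.04, below background, on the resistant and 6.85 on the parental array, which was under 2-fold against the stricter level.

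**Figure D3:**
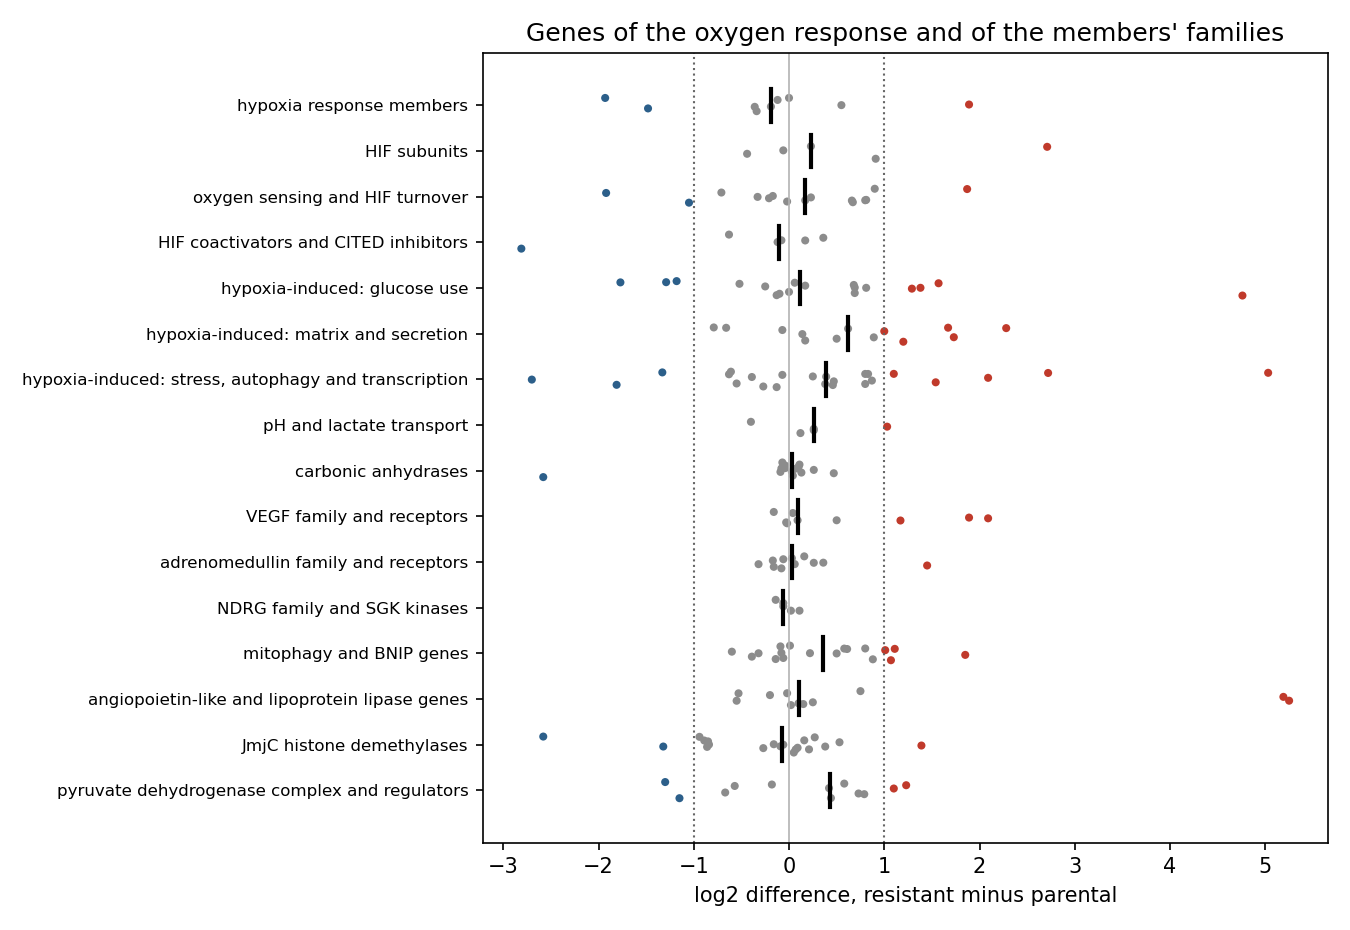
Log2 difference, resistant minus parental (horizontal axis), of each measured gene in the members' list and 15 lists of related genes (rows), with black bars for the medians, dotted lines at 2-fold, and red and blue points for genes at least 2-fold higher and lower. The members hold 1 red and 2 blue points, and the matrix and secretion list 5 red and 0 blue points.

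Co-receptors of VEGFA were higher on the resistant array. Of 9 VEGF family and receptor genes, 3 were at least 2-fold higher and 0 lower, with a median of 0.09. The shares over the brighter genes were 16.0% higher and 14.1% lower. The co-receptor genes NRP1 and NRP2 were 4.26-fold and 3.71-fold higher. NRP1 stood at 10 on the resistant and 7.91 on the parental array, and NRP2 at 7.68 on the resistant and 5.79 on the parental array, at least 2.09-fold higher against the stricter level. VEGFB was 2.25-fold higher, at 7.76 on the resistant and 6.59 on the parental array, and VEGFC stood at 6.90 on the resistant and 6.40 on the parental array. The kinase receptor genes FLT1 (3.93 resistant, 4.09 parental) and KDR (3.84 resistant, 3.80 parental) were below background on both arrays, as was VEGFD (4.56 resistant, 4.58 parental), while PGF was near it (5.16 resistant, 5.07 parental).

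Of 11 adrenomedullin family and receptor genes, 1 was at least 2-fold higher and 0 lower, with a median of 0.03. It was PAM, the enzyme that amidates adrenomedullin and other peptides, at 8.94 on the resistant and 7.49 on the parental array. CALCRL, the receptor of adrenomedullin, was below background on both arrays (3.85 resistant, 4.17 parental), and so were ADM2 (3.60 resistant, 3.66 parental), RAMP2 (3.88 resistant, 3.82 parental) and RAMP3 (4.69 resistant, 4.77 parental). RAMP1 lay near background, at 5.24 on the resistant and 4.98 on the parental array.

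Of 11 measured angiopoietin-like and lipase genes (14 listed), 2 were at least 2-fold higher and 0 lower, with a median of 0.10. PPARG, a nuclear receptor known to induce ANGPTL4 in other cells, was 36.5-fold higher, at 10.40 on the resistant and 5.21 on the parental array, the second value lying close to background, and it was at least 13.8-fold higher against the stricter level. LIPG, the endothelial lipase, was at least 28.4-fold higher, at 9.92 on the resistant array and below background (4.67) on the parental array, and at least 9.89-fold higher against the stricter level. LIPG lies on chromosome 18, as do SMAD4 and ME2, and the part of that chromosome in its difference was not tested. ANGPTL4 itself was below background on both arrays, as was ANGPTL6 (4.65 resistant, 4.67 parental).

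The relatives of PDK1 were divided. PDK3 was 2.22-fold lower, at 8.28 on the resistant and 9.43 on the parental array. PDK2 stood at 7.20 on the resistant and 6.62 on the parental array, under 2-fold. PDK4 stood at 5.13 on the resistant and 4.40 on the parental array, where it was below background. Of the 12 measured genes of the pyruvate dehydrogenase complex and its regulators (13 listed), 2 were higher and 2 lower, with a median of 0.43. PDP1, a phosphatase that reverses the action of the PDK kinases, was 2.46-fold lower, at 8.71 on the resistant and 10.01 on the parental array. The subunit genes PDHX (10.85 resistant, 9.62 parental) and PDHB (9.04 resistant, 7.94 parental) were 2.35-fold and 2.14-fold higher.

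Among 18 measured mitophagy and BNIP genes (19 listed), 4 were at least 2-fold higher and 0 lower, with a median of 0.36. With the stricter level 3 were higher, beside 16.0% higher and 14.1% lower over the brighter genes without that step. The 4 included the autophagy receptor genes TAX1BP1 (12.98 resistant, 11.13 parental) and SQSTM1 (10.02 resistant, 8.91 parental). The others were FKBP8 (9.66 resistant, 8.59 parental), which recruits autophagy proteins to mitochondria, and the kinase gene PINK1 (6.82 resistant, 5.81 parental). The PINK1 values were below the stricter level on both arrays. BNIP3L, the closest relative of BNIP3, stood at 11.44 on the resistant and 10.64 on the parental array, under 2-fold. The difference of BNIP3 itself, -0.19, was smaller in size than 0.42, the standard deviation of the olfactory receptor genes' differences. That deviation is a spread across genes that mostly lay below background. It does not measure the spread between replicates at the brighter level of BNIP3. BNIP3L is also counted in the stress list above.

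The closest relatives of NDRG1 and KDM3A differed by less than 2-fold. Of 5 measured NDRG and SGK genes (6 listed), 0 reached 2-fold in either direction, with a median of -0.06. NDRG3 stood at 11.49 on the resistant and 11.38 on the parental array, and NDRG2 at 6.62 on the resistant and 6.60 on the parental array. NDRG4 was below background, at 4.97 on the resistant and 5.03 on the parental array, so NDRG1 was the 1 member of its family past 2-fold. SGK1, a kinase that phosphorylates NDRG1, stood at 7.70 on the resistant and 7.84 on the parental array. Of 20 JmjC histone demethylase genes, 1 was higher and 2 lower, with a median of -0.08. KDM3B, the nearest relative of KDM3A, stood at 11.72 on the resistant and 11.63 on the parental array, and JMJD1C at 11.56 on the resistant and 11.65 on the parental array. KDM4C, a demethylase known as a partner of HIF in breast cancer cells, was 5.98-fold lower, at 6.27 on the resistant and 8.85 on the parental array, and at least 3.37-fold lower against the stricter level. KDM6A, a demethylase of histone H3 lysine 27, was 2.50-fold lower, at 8.67 on the resistant and 9.99 on the parental array, and RIOX2, a ribosomal oxygenase, 2.62-fold higher, at 10.06 on the resistant and 8.67 on the parental array.

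CA9 has no value here, and its relatives give no substitute for it. Of 14 other carbonic anhydrase genes, 0 were at least 2-fold higher and 1 was lower, with a median of 0.04, and 4 were above background on either array. CA2, a cytosolic enzyme, was 5.98-fold lower, at 5.15 on the resistant and 7.73 on the parental array. Its resistant value lay close to background, and against the stricter level CA2 was at least 1.55-fold lower, no longer past 2-fold. CA12, the other hypoxia-induced surface enzyme, was below background on both arrays, at 5.02 on the resistant and 4.76 on the parental array. Of 5 measured genes of pH and lactate transport (8 listed), 1 was higher and 0 lower, with a median of 0.26. It was SLC4A7, a bicarbonate transporter, at 10.83 on the resistant and 9.80 on the parental array, while BSG, the chaperone of lactate transporters, stood at 13.63 on the resistant and 14.03 on the parental array.

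The members lie on several chromosomes, and the genes beside them were read in the order of the RefSeq annotation, 10 named genes on each side. Around PDK1 (chromosome 2), 7 of 13 neighbours above background were at least 2-fold higher and 0 lower, with a median of 1.11 log2 units. The adjacent gene ITGA6, an integrin subunit, stood at 15.27 on the resistant and 12.30 on the parental array. The 743 brighter genes of chromosome 2 had a median of 0.27, with 175 higher and 65 lower. Around EGLN3 (chromosome 14), 8 of 16 neighbours above background were at least 2-fold lower and 0 higher, with a median of -0.84. The adjacent gene SPTSSA, a subunit of the enzyme that starts sphingolipid synthesis, stood at 8.90 on the resistant and 9.94 on the parental array. Of the 380 brighter genes of chromosome 14, 181 were at least 2-fold lower and 20 higher, with a median of -0.92. EGLN3 and PDK1 therefore differed in the same direction as the genes around them, and the part of position in their differences was not tested.

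NDRG1 (chromosome 8) was opposite in sign to the median of its neighbours. Of 7 neighbours above background, 2 were at least 2-fold higher and 1 lower, with a median of 0.37, and the adjacent gene ST3GAL1, a sialyltransferase, stood at 10.03 on the resistant and 8.27 on the parental array. The 392 brighter genes of chromosome 8 had a median of -0.05. Of the members under 2-fold, ADM (chromosome 11) had 16 neighbours above background, of which 5 were lower and 1 was higher, with a median of -0.48, and the adjacent AMPD3 stood at 6.37 on the resistant and 5.34 on the parental array. BNIP3 (chromosome 10) lay beside PPP2R2D, at 7.83 on the resistant and 9.15 on the parental array. For VEGFA, ANKRD37, KDM3A, BNIP3 and ANGPTL4, the neighbours above background had medians between -0.13 and 0.34. The nearest named genes on the remaining sides were RAPGEF4-AS1 for PDK1, NPAS3 for EGLN3, CCN4 for NDRG1 and JAKMIP3 for BNIP3, with differences of -0.08, 0.16, -0.23 and 0.30. ADM lay next to RNU7-28P (-0.52), VEGFA between MRPS18A (0.08) and LINC01512 (0.10), and ANKRD37 between LRP2BP (0.28) and CFAP96 (0.27). KDM3A lay between REEP1 (-0.39) and RNF103 (0.61), and ANGPTL4 between KANK3 (0.06) and RAB11B-AS1 (0.39).

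**Figure D4:**
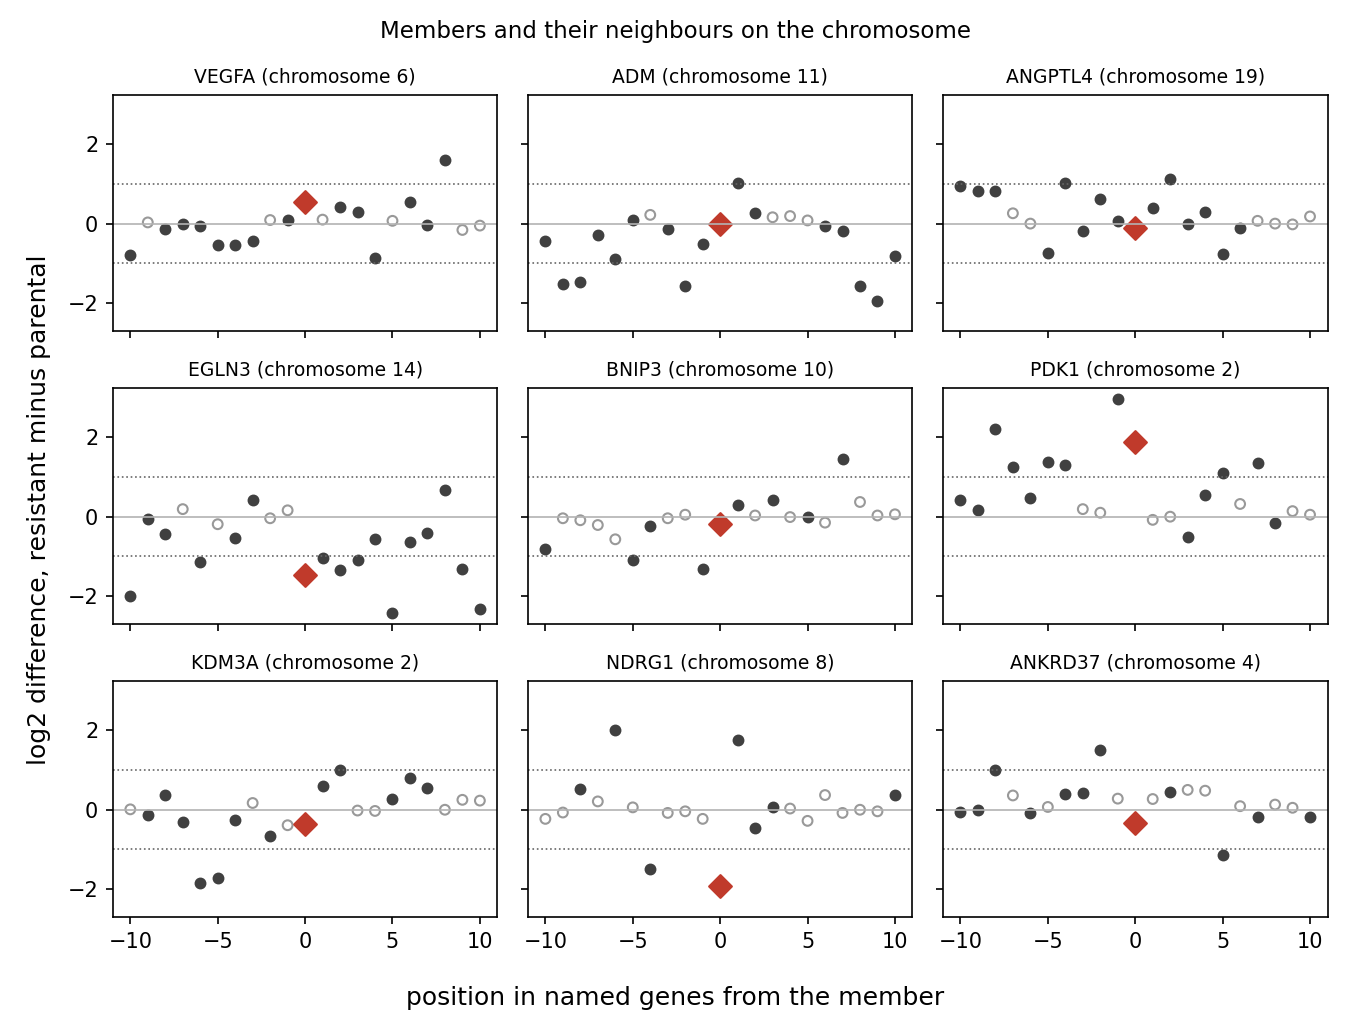
Log2 difference, resistant minus parental (vertical axis), of each measured member (diamond) and of 10 named genes on each side of it (horizontal axis, position in genes), with filled circles for neighbours above background on either array and open circles for the rest. Filled circles lie mostly above 0 around PDK1 and mostly below 0 around EGLN3, while NDRG1 lies below all 20 of its neighbours.

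The dim members moved most with the floor chosen for background. Centring, loess, quantile normalisation, the mean of all clusters and a floor at background left PDK1 as the member at least 2-fold higher and NDRG1 and EGLN3 as those at least 2-fold lower.

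**Figure D5:**
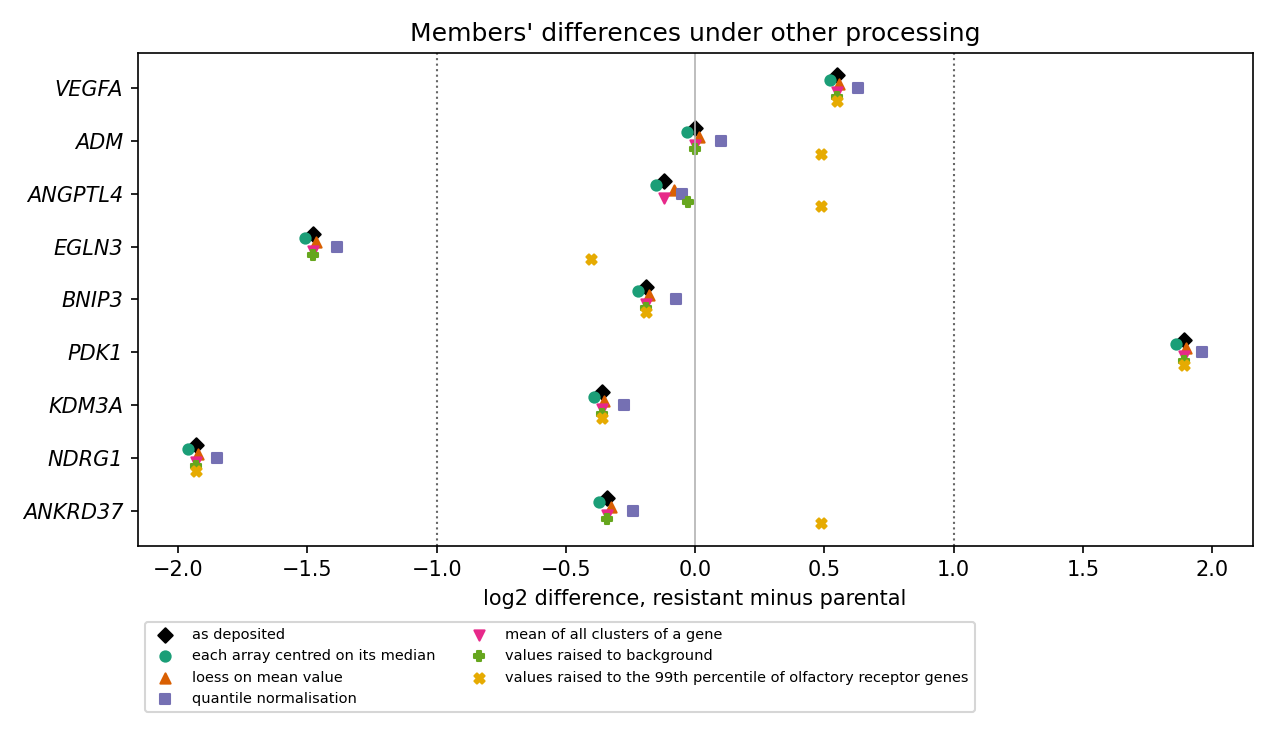
Log2 difference, resistant minus parental (horizontal axis), of the 9 measured members as deposited (black diamonds) and under 6 other settings (other symbols), with dotted lines at 2-fold. Points of PDK1, NDRG1 and VEGFA lie close together, and EGLN3 crosses the dotted line with the stricter floor, under which 99% of olfactory receptor genes lay.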

How the data were processed

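Total RNA of 2 cultures was hybridised to 1 array each. The deposited table holds log2 expression values of 67528 transcript clusters, processed by the authors with Affymetrix Expression Console per the submitters' processing notes. Its version, algorithm and genome build were not stated in the labels. The log2 unit was inferred from the values (1.95 to 19.78). The sorted columns differed by at most 0.28, so a normalisation between arrays before deposit is likely, though not stated, and it would remove any difference in total RNA. The table has no detection calls or scan data, and the number of arrays limits the precision.

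A platform annotation gave 1 symbol for 23781 clusters, several for 1543 and none for 42204; symbols of 21497 were updated through RefSeq (GRCh38.p14). For the 478 genes with more than 1 cluster the brightest on average was kept, and chromosome Y was left out, leaving 22407 genes. A fold is "at least" where 1 array was at or below background and is not given where both were. The brightness filter kept 11196 genes. Python 3.11.15, pandas 2.3.3 and statsmodels 0.14.6 were used, and the scripts were tested on simulated data.

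The members, the 20 gene lists and the background rule were chosen with earlier results of these data known. Named genes are all members, HIF subunits, main regulators, closest paralogs, receptors, adjacent genes, and, per list, at most 4 genes above background that differed most in size. The alternatives were median centring, loess, quantile normalisation, the mean of all clusters, values raised to background, 1.5-fold and 4-fold thresholds and other brightness filters. List counts with values raised above 99% of olfactory receptor genes were added after the data were seen.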

Additional observations from a re-analysis of the deposited data

How the results depend on the processing

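Centring each array, loess on the mean value, quantile normalisation, averaging a gene's clusters and raising values to background left all 9 members on their side of 2-fold. Across these and a floor above 99% of olfactory receptor genes, PDK1 lay between 1.86 and 1.96, NDRG1 between -1.96 and -1.85, and VEGFA between 0.52 and 0.63. With that floor 1 member was higher and 1 lower, and EGLN3 had a difference of -0.40, under 2-fold, because its resistant value was raised to the floor. ADM, ANKRD37 and ANGPTL4 then had 0.49, the difference between the floors. At 4-fold, 0 members were higher and 0 lower. With the brightness filter at the 75th percentile 1 member was lower, since EGLN3 was removed. The median of the members was -0.075 under quantile normalisation.

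Of all counted genes, 2921 were higher and 2772 lower at 1.5-fold, 611 and 431 at 4-fold, and 1066 and 955 with the 75th percentile filter, against 1790 and 1577. Quantile normalisation moved the median of the JmjC demethylases to 0.035. Raising values to background moved the HIF subunits, pH and lactate transport, and angiopoietin-like lists to -0.028 each, and the pyruvate dehydrogenase list to 0.23. The value -0.028 is the difference between the background floors of the arrays, which genes below background on both arrays take. It is not a measured shift of these lists. Over brighter genes alone, medians were 0.91 for HIF subunits (3 genes), 0.76 for matrix and secretion (12) and 0.12 for pH and lactate transport (3). They were -1.31 for carbonic anhydrases (2), 1.53 for VEGF genes (4) and 0.65 for adrenomedullin genes (2). For mitophagy (17) the median was 0.50 and for angiopoietin-like genes (4) 2.97. Dim genes drop out, and a gene can pass by its brighter array alone, as PPARG did (10.40 resistant, 5.21 parental). Large medians of few genes therefore follow in part from the filter and give no support for a difference of a list. No paired analysis was possible because there was 1 array in each group. Dim values of ADM, ANKRD37, ANGPTL4 and EGLN3 limit what can be said of them.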
